A study of Mus musculus with 12 samples.

Results

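The interleukin 12 family subunits are 5 genes, Il12a, Il12b, Il23a, Il27 and Ebi3, of the 22180 genes measured in mouse bone marrow-derived dendritic cells with and without the gene Arc (Arc/Arg3.1). They were chosen by name, as the probe sets whose platform annotation gives exactly 1 gene symbol equal to a family member, and all 5 were found. Il12a, Il12b, Il23a and Il27 had 1 such probe set each and Ebi3 had 2, of which the one with the higher mean over the 12 arrays was used. The cells came from marrow of mice aged 8 weeks on a C57BL/6 background, grown with the growth factor GM-CSF at 20 ng/ml and harvested on day 7. The 4 groups of 3 arrays were knockout (Arc/Arg3.1 -/-) cells given LPS, untreated knockout cells, wildtype (Arc/Arg3.1 +/+) cells given LPS, and untreated wildtype cells. LPS, a bacterial cell wall component sensed by Toll-like receptor 4, was given at 100 ng/ml for 30 min, and after washing the cells spent 1 h in plain medium until RNA extraction. Untreated cells went through the same steps with medium alone. The titles call the arrays of each group biological replicates, but the labels do not say whether each culture came from a separate animal. In every group but untreated wildtype cells, Xist and Y-linked signals (below) differed between arrays, so those arrays were not all from 1 animal. A p-value here reflects only how these cultures differed, and how far that is technical is not known.

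Members of this family are secreted as pairs of a helical cytokine chain and a chain that resembles a soluble receptor. Il12a encodes p35 and Il12b encodes p40, which together form IL-12, the cytokine that drives T helper 1 cells and interferon-gamma production. Il23a encodes p19, which pairs with the same p40 to form IL-23, a cytokine that sustains T helper 17 cells. Il27 encodes p28, which pairs with Ebi3 to form IL-27, and Ebi3 with p35 forms IL-35; both are known to restrain inflammation, and IL-27 also acts early on naive T cells. Dendritic cells and macrophages are the main sources of IL-12, IL-23 and IL-27, and Toll-like receptor ligands are known to induce their subunits to different extents and at different times.

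Several features of the arrays bear on the values below. The Arc probe set read 7.68 to 8.05 on the log2 scale in knockout cells and 9.21 to 9.62 in wildtype cells. The 3 untreated wildtype arrays were closer to one another than replicates of the other groups (SD of the log2 differences 0.105 to 0.108, against 0.193 to 0.438 in 9 pairs, over 6440 genes), and their mean was counted as 1 sample. Their titles give them as separate biological replicates, and the choice bears on each wildtype p-value: with 12 separate arrays 1917 genes passed for LPS in wildtype cells, against 349. All animals are labelled male, but 9 arrays had a high signal of Xist, the RNA that coats an inactivated X (11.22 to 11.92), with Y-linked genes at 3.33 to 4.86. The other 3 arrays (LPS-treated knockout replicate 2, untreated knockout replicate 2 and LPS-treated wildtype replicate 1) had Xist at 5.63 to 5.76 and Y-linked genes at 8.14 to 9.89. Replicates 2 and 3 of both LPS groups had a lower median signal of 87 small RNA genes, at 9.43 to 9.53 against 10.16 to 10.79 on the other 8 arrays. All 7 measured dendritic cell markers had a mean log2 signal above 8, among them Itgax (10.88), Zbtb46 (9.06) and H2-Ab1 (13.45). So did 5 of 6 macrophage, 4 of 4 inflammatory monocyte, 4 of 8 neutrophil and 2 of 4 mast cell and basophil markers, so this measure does not single out dendritic cells. The markers of T, B and NK cells, apart from Cd8a (8.16), had means of 5.41 to 6.44, close to the median of the unannotated probe sets, those to which the platform annotation gives no gene (5.89 to 6.10 across arrays).

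The sequences before the start sites are shown for the 3 members whose windows were in the table used here, to set them beside responses to LPS that differed: the signal of Il12b rose in both genotypes, that of Ebi3 passed the test in knockout cells, and that of Il12a passed in neither. Each line gives the 250 bases before a start site on the plus strand, from RefSeq on build GRCm38.p6; Il12a has 2 annotated starts. Capitals mark matches to the 4 motifs searched: the NF-kB consensus, the C/EBP core TTGCAA, the AP-1 site TGANTCA (each on both strands) and the TATA box TATANAA (on the gene's strand).
Il12b, chr11:44399813-44400062: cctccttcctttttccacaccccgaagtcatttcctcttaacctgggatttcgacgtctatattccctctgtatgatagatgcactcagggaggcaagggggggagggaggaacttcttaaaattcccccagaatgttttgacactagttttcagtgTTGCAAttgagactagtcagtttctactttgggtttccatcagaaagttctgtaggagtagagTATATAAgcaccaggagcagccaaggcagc
Ebi3, chr17:55952373-55952622: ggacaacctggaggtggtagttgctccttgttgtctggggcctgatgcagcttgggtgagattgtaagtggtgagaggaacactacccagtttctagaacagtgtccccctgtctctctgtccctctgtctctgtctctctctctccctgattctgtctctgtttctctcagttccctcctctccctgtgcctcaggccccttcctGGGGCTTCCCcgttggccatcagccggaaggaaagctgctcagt
Il12a, upstream start, chr3:68690394-68690643: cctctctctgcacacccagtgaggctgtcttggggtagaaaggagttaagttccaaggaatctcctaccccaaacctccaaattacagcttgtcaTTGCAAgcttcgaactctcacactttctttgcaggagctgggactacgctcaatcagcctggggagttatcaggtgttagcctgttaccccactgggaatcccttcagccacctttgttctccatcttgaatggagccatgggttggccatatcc
Il12a, downstream start, chr3:68691174-68691423: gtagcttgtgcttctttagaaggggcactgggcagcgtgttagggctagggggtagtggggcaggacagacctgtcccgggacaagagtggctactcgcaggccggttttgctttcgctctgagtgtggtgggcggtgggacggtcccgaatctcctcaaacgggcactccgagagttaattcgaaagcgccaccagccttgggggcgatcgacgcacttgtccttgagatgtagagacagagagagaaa
Il12b held a C/EBP core 93 to 88 bases before its start and a TATA box match at 30 to 24 bases. The Ebi3 window held an NF-kB consensus match, GGGGCTTCCC, at 44 to 35 bases before its start. Il12a held a C/EBP core 155 to 150 bases before the upstream start and no match before the downstream one. Of 32851 windows of this length in the same table, 5.34% held the C/EBP core, 6.58% the TATA box, 7.25% the NF-kB consensus and 6.75% the AP-1 site. The motifs were chosen after the sequences were seen, and no match overlapped another. A match describes letters and does not show binding. The lack of a match does not show that a window holds no site, since sites that depart from the searched letters were missed.

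LPS raised 2 of the 5 subunit genes in both genotypes, Il23a and Il12b, whose products p19 and p40 together make IL-23. Untreated Il23a lay near the level of unannotated probe sets, whereas untreated Il12b stood well above it. Ebi3 rose by a small amount in knockout cells. Il27 and Il12a passed the test in neither genotype. In knockout cells 3 of 5 members rose and 0 fell, where 2.98% of all genes rose, 2.93% fell and 5.91% did either (limma, adjusted p at a threshold of 0.05). In wildtype cells 2 of 5 rose and 0 fell, where 1.34% of all genes rose, 0.234% fell and 1.57% did either. The median log2 difference of the 5 members was 0.48 in knockout and 0.32 in wildtype cells, beside -0.0037 and -0.0053 over all genes.

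Il23a, the p19 chain of IL-23, had the largest difference in signal of the family. Its log2 signal was 10.56, 10.75 and 10.77 in LPS-treated knockout cells and 6.38, 6.38 and 6.40 in untreated knockout cells. In wildtype cells it was 10.62, 10.29 and 10.29 after LPS and 6.05, 6.59 and 6.35 without LPS. All 6 LPS arrays lay above all 6 untreated arrays by a wide gap. Within a genotype, LPS arrays lay above untreated ones for 10.3% of all genes in knockout and 16.2% in wildtype cells. The untreated values of Il23a lay within 0.53 log2 units of the median signal that unannotated probe sets had on the same array. The difference in log2 signal was 4.31 in knockout cells (SE 0.12, 95% interval 4.05 to 4.57, adjusted p = 3.38e-08 by limma). In wildtype cells it was 4.07 (SE 0.17, 95% interval 3.70 to 4.44, adjusted p = 2.38e-06). These are ratios of signal of 19.8-fold and 16.8-fold, which are not ratios of transcript amount, since the untreated signal lies so close to that of unannotated probe sets. Between knockout arrays of the same replicate number the log2 differences were 4.17, 4.37 and 4.38.

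Il12b encodes p40, the chain shared by IL-12 and IL-23. Its log2 signal was 12.45, 12.11 and 12.61 in LPS-treated knockout cells and 10.60, 9.51 and 10.09 in untreated knockout cells. Wildtype cells had 12.22, 12.10 and 12.22 after LPS and 10.10, 10.26 and 10.16 without LPS. No untreated array reached the lowest LPS array. Within a genotype this held for 10.3% of all genes in knockout and 16.2% in wildtype cells. Untreated knockout cells were the most variable group (SD 0.54, n = 3), with replicate 2, an array with Y-linked signal, the lowest; replicate 2 was also the lowest of the LPS-treated knockout arrays. The log2 difference was 2.32 in knockout cells (SE 0.23, adjusted p = 0.000255 by limma) and 2.01 in wildtype cells (SE 0.33, adjusted p = 0.0133), a 5.01-fold and a 4.03-fold rise in signal. On the untreated arrays Il12b was 3.58 to 4.63 log2 units above the median of unannotated probe sets. Without the 3 arrays of Y-linked signal the differences were 2.19 in knockout and 1.99 in wildtype cells. Without the 4 arrays of low small RNA signal, when 1 LPS array per genotype was left, the wildtype difference was 2.05 with adjusted p = 0.173 by limma.

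**Figure D1:**
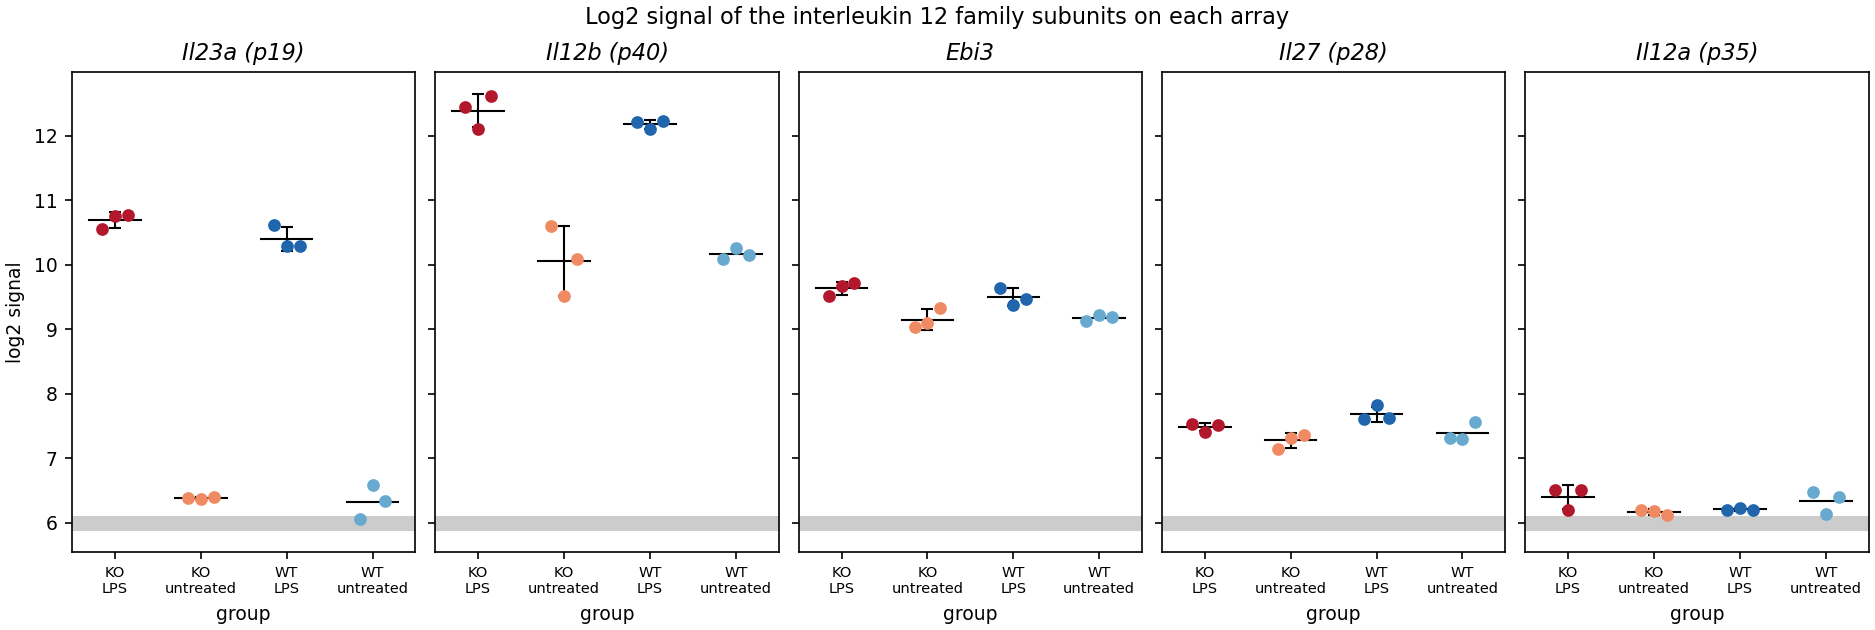
Log2 signal (y axis) of each subunit gene on the 12 arrays, by group (x axis). Points are arrays, horizontal lines are group means and bars are SD (n = 3; none for untreated wildtype cells, counted as 1 sample). The grey band spans the medians of unannotated probe sets, 5.89 to 6.10 across arrays. Untreated Il23a and all groups of Il12a sit on or just above it, while Il12b is far above it in every group. Heights of different genes cannot be set against each other, since probe sets differ in sensitivity.

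Ebi3, the receptor-like chain of IL-27 and IL-35, moved far less. Its log2 signal was 9.51, 9.68 and 9.71 in LPS-treated knockout cells, against 9.03, 9.09 and 9.33 in untreated knockout cells. In wildtype cells it was 9.65, 9.38 and 9.48 after LPS, against 9.13, 9.22 and 9.19 without LPS. Within each genotype every LPS array was above every untreated array, as were those of 10.3% of all genes in knockout and 16.2% in wildtype cells. The log2 difference of 0.48 in knockout cells passed the test narrowly (SE 0.12, adjusted p = 0.0426 by limma), and that of 0.32 in wildtype cells did not (SE 0.17, 95% interval -0.06 to 0.70, adjusted p = 0.624). The difference between these responses was 0.16 (95% interval -0.30 to 0.62), so a distinct response in knockout cells was not shown. With 12 separate arrays the adjusted p was 0.0153 in knockout and 0.093 in wildtype cells (limma). The second probe set of Ebi3, below the upper quartile of unannotated probe sets on 11 of 12 arrays, averaged 6.94 ± 0.15 in LPS-treated and 6.32 ± 0.06 in untreated knockout cells (SD, n = 3 each), a log2 difference of 0.62 (adjusted p = 0.0114). With it, the wildtype difference was 0.48 (adjusted p = 0.285), in the same direction. The knockout call was lost in 12 of 28 other settings, among them without the 3 arrays of Y-linked signal (0.43, adjusted p = 0.139) and without the 4 arrays of low small RNA signal (0.36, adjusted p = 0.257). It was also lost on leaving out LPS-treated knockout replicate 2 or 3, untreated knockout replicate 1 or 2, or LPS-treated wildtype replicate 2 or 3, one at a time (0.42 to 0.48, adjusted p = 0.0579 to 0.161).

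Il27, the p28 chain of IL-27, passed the test in neither genotype. It had a log2 signal of 7.53, 7.41 and 7.51 in LPS-treated knockout cells and 7.15, 7.32 and 7.37 in untreated knockout cells. After LPS wildtype cells had 7.62, 7.82 and 7.62, and untreated wildtype cells had 7.32, 7.30 and 7.56. The LPS arrays were the higher ones within each genotype, by small steps (as for 10.3% of all genes in knockout and 16.2% in wildtype cells). The log2 differences were 0.21 in knockout cells (95% interval -0.03 to 0.44, adjusted p = 0.320 by limma) and 0.29 in wildtype cells (-0.04 to 0.63, adjusted p = 0.613). The upper ends of these intervals apply to the signal at this time and not to transcript amount. On all arrays the signal of Il27 lay 1.18 to 1.86 log2 units above the median of unannotated probe sets on the same array.

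Il12a, the p35 chain of IL-12 and IL-35, was close to the background on every array. The log2 signal was 6.50, 6.19 and 6.51 in LPS-treated knockout cells and 6.19, 6.19 and 6.12 in untreated knockout cells. Wildtype cells had 6.19, 6.23 and 6.20 after LPS and 6.47, 6.13 and 6.41 without LPS. On all 12 arrays the signal lay below the upper quartile of the unannotated probe sets (6.87 to 7.10). The wildtype groups overlapped. The knockout groups only just stood apart (6.1938 against 6.1933), with the LPS arrays higher, as for 10.3% of all genes. The log2 difference was 0.23 in knockout cells (95% interval -0.01 to 0.47, adjusted p = 0.267 by limma) and -0.13 in wildtype cells (-0.47 to 0.21, adjusted p = 0.947). At such a signal a fall or a small rise in transcript could not be read, so the absence of a call does not show that Il12a was unchanged. A large rise from a similar untreated signal was read for Il23a (untreated means 6.39 in knockout and 6.33 in wildtype cells), though probe sets differ in sensitivity.

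By cytokine, the gene signals of both chains of IL-23 rose in both genotypes. Of the genes of IL-12, Il12b rose, and Il12a did not pass the test at a signal where a fall or a small rise could not be read. For IL-27, Ebi3 passed in knockout cells and Il27 in neither genotype. For IL-35, made of Ebi3 and p35, the same Ebi3 call in knockout cells was the only one, and no gene passed in wildtype cells. That call was lost in 12 of 28 other settings. These are RNA signals, and protein was not measured on the arrays. In RNA of a whole culture, fewer cells of a type and less RNA per cell cannot be told apart.

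**Figure D2:**
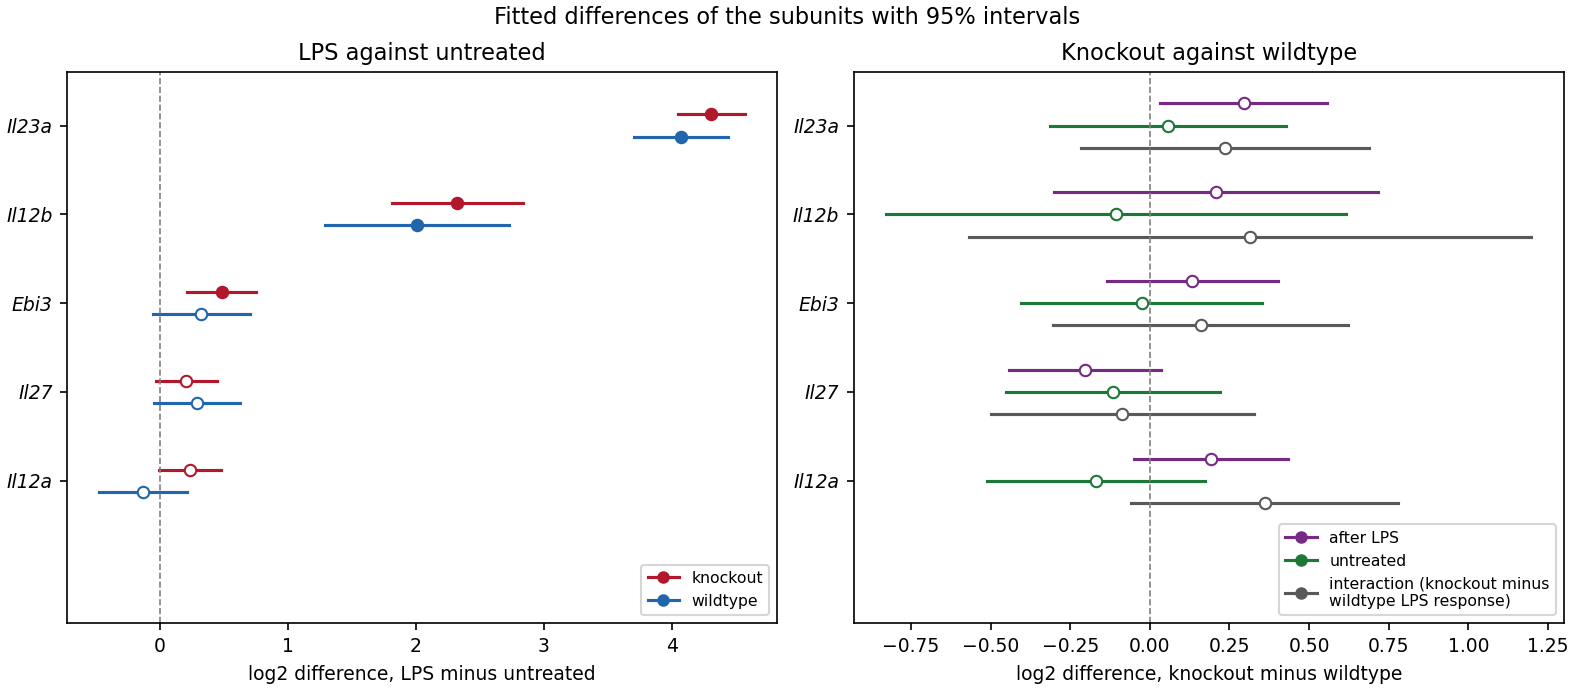
Fitted log2 differences (x axis) of the 5 subunit genes (y axis) with 95% intervals. The left panel gives LPS against untreated cells by genotype and the right panel knockout against wildtype cells after LPS and untreated, with the interaction. Filled points passed an adjusted p of 0.05. The filled points are Il23a and Il12b in both genotypes and Ebi3 in knockout cells, and no point of the right panel is filled.

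Knockout cells were set against wildtype cells to ask whether loss of Arc changes these genes or their response to LPS. No subunit gene passed the test in any of the 4 contrasts that address this. After LPS 0 of 5 members passed by limma (0.00902% of all genes did), untreated 0 of 5 (0.00451%), over both treatments 0 of 5 (0.0135%), and for the interaction of genotype and LPS 0 of 5 (0% of all genes). At an unadjusted p below 0.05 the counts of members were 1, 0, 0 and 0. The 1 was Il23a after LPS, at 10.69 ± 0.12 in knockout and 10.40 ± 0.19 in wildtype cells (SD, n = 3 each). Its log2 difference was 0.29 (95% interval 0.03 to 0.56, unadjusted p = 0.0306, adjusted p = 0.999 by limma), and LPS-treated wildtype replicate 1 (10.62) lay above LPS-treated knockout replicate 1 (10.56), so the groups overlapped. Those were the 2 arrays left in these groups without the 4 arrays of low small RNA signal, and the difference was then -0.060.

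Il27 was the 1 member whose LPS arrays did not overlap between genotypes, lower in knockout cells (7.41 to 7.53) than in wildtype cells (7.62 to 7.82), as were 4.96% of all genes. Its log2 difference, knockout minus wildtype, was -0.20 (95% interval -0.44 to 0.04). The differences after LPS were 0.21 for Il12b (95% interval -0.30 to 0.72), 0.13 for Ebi3 (-0.13 to 0.40) and 0.19 for Il12a (-0.05 to 0.43). In untreated cells they ran from -0.17 for Il12a (95% interval -0.51 to 0.17) to 0.06 for Il23a (-0.31 to 0.43), with Il12b at -0.11 (-0.83 to 0.61). The interval of Il12b is the widest of the family. The interaction, the LPS response of knockout minus that of wildtype cells, was 0.24 for Il23a (95% interval -0.22 to 0.69), 0.31 for Il12b (-0.57 to 1.20), 0.36 for Il12a (-0.06 to 0.78) and -0.09 for Il27 (-0.50 to 0.33). All 4 of these intervals include 0, that of Il12a by little.

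Ordered by mean signal, Il23a, Il12b and Ebi3 had LPS-treated knockout cells highest and LPS-treated wildtype cells next, and these groups overlapped for each of the 3 genes. Below them came untreated knockout above untreated wildtype cells for Il23a and the reverse for Il12b and Ebi3, again with overlap. The order for Il27 ran from LPS-treated wildtype cells (7.69 ± 0.12) through LPS-treated knockout cells (7.48 ± 0.06) and untreated wildtype cells (7.39, 1 counted sample) to untreated knockout cells (7.28 ± 0.11; SD, n = 3 each). Il12a had no clear order, as its 4 group means lay between 6.17 and 6.40.

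**Figure D3:**
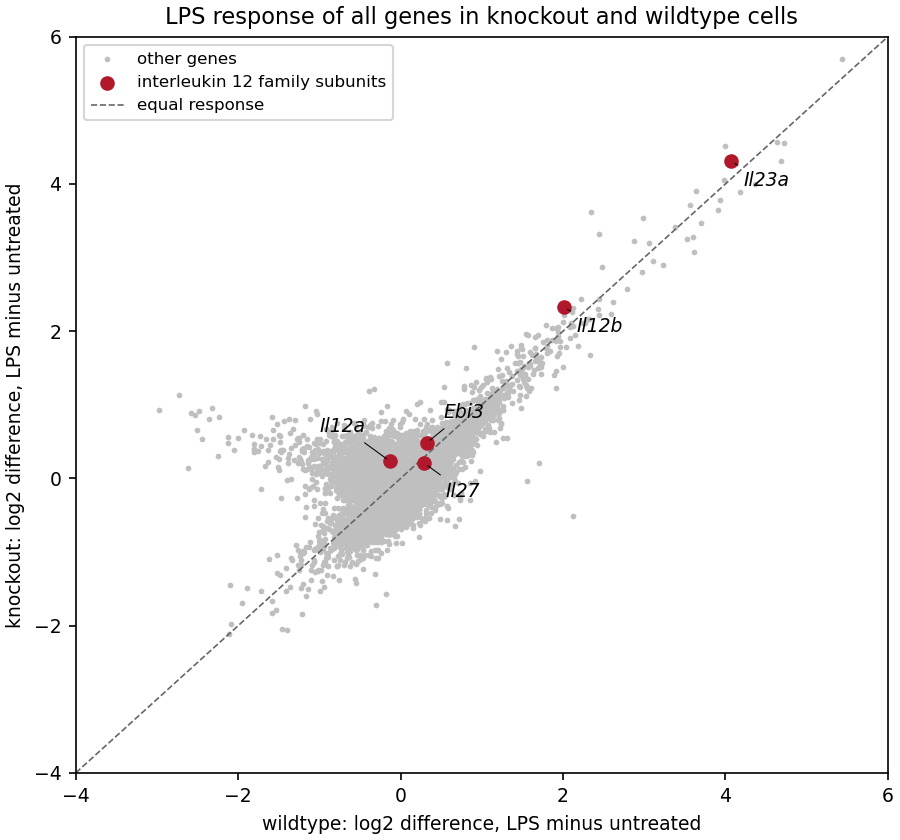
LPS response of all 22180 genes as the log2 difference between LPS-treated and untreated cells, in knockout (y axis) against wildtype cells (x axis). Red points are the 5 subunit genes, grey points all other genes, and the dashed line marks equal responses. Il23a (4.31 in knockout, 4.07 in wildtype) lies among the few genes at the upper right, Il12b (2.32 and 2.01) at the lower end of that arm, and Ebi3, Il27 and Il12a within the main cloud.

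The genes with the most similar signal over the 12 arrays differed from member to member. For Il23a they were Tnfsf9, the ligand of the co-stimulatory receptor 4-1BB (Pearson r = 0.997), Rgs2, a regulator of G protein signalling (0.9945), and Isg15, a ubiquitin-like protein induced by interferon (0.994). For Il12b they were Olr1, a receptor for oxidised LDL (0.991), Procr, the protein C receptor (0.990), and Skil, a repressor of TGF-beta signalling (0.988). Ebi3 had lower values, with 4930579G24Rik (0.944), Poldip3 (0.941) and Slc22a21, a carnitine transporter (0.939). All these correlations share the step between 6 LPS and 6 untreated arrays, and they describe likeness on these arrays only. Between members, Il23a and Il12b had r = 0.973, Il23a and Ebi3 0.904, and Il12b and Ebi3 0.867, while Il12a had 0.156 to 0.252 with the other 4. Within the 6 LPS arrays of both genotypes most values were otherwise. They were 0.452 for Il23a and Il12b, 0.939 for Il23a and Ebi3, 0.398 for Il12b and Ebi3, 0.915 for Il12b and Il12a, and -0.807 for Il23a and Il27. The value with Il12a rests on a signal close to the background. These 6 arrays differ in genotype and in small RNA signal, and shared regulation was not tested.

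The receptors and signalling genes of these cytokines did not pass the test in either genotype after LPS, although with 12 separate arrays 1 receptor passed in wildtype cells and 1 signalling gene in knockout cells. With the replicate block added to these, 1 receptor passed in knockout and 2 in wildtype cells, and 1 signalling gene in knockout cells, as with only genes above the median mean signal. The receptor list held Il12rb1, shared by IL-12 and IL-23, Il12rb2, specific to IL-12, Il23r, and the IL-27 receptor chains Il27ra and Il6st (gp130). Of these 5 genes, 0 rose and 0 fell in knockout and in wildtype cells, with median log2 differences of 0.02 and 0.23. Il6st had the lowest value of the list, with log2 signals of 11.11, 10.94 and 11.14 in LPS-treated knockout cells and 11.61, 11.21 and 11.63 in untreated knockout cells. That is a log2 difference of -0.42 in knockout cells (95% interval -0.74 to -0.10, adjusted p = 0.126 by limma) and -0.44 in wildtype cells (adjusted p = 0.530). Il12rb2 had the highest, at 0.35 (adjusted p = 0.151) and 0.42 (adjusted p = 0.468) in knockout and wildtype cells. Of 8 genes of receptor signalling 6 were measured, the kinases Jak1, Jak2 and Tyk2 and the factors Stat3, Stat4 and Tbx21, and 0 passed in either genotype, with differences from -0.33 (Tyk2 in knockout cells) to 0.16 (Jak1 in wildtype cells).

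Some listed regulators of subunit transcription rose with LPS, and most did not pass the test. Of 10 measured activators of 12 listed, 3 rose, 0 fell and 7 did not pass in each genotype, where 2.98% of all genes rose in knockout and 1.34% in wildtype cells, and the median log2 difference was 0.19 in knockout and 0.39 in wildtype cells. The 3 were Nfkbiz, which encodes the NF-kB cofactor IkB-zeta, Irf1, an interferon regulatory factor, and Rel, the NF-kB subunit c-Rel that is known to be needed for Il12b and Il23a transcription. Nfkbiz had a log2 difference of 4.06 (SE 0.17, adjusted p = 9.94e-07) in knockout and 3.98 (SE 0.24, adjusted p = 4.45e-05) in wildtype cells by limma. Irf1 rose by 1.20 and 1.13 on the log2 scale (adjusted p = 0.00147 and 0.0364) and Rel by 0.68 and 0.71 (adjusted p = 0.00433 and 0.0488) in knockout and wildtype cells. The activators Irf8 and Spi1, known to set the capacity of myeloid cells for Il12b expression, did not pass, at 0.11 and -0.12 in knockout cells. The wildtype count depended on the setting: it was 5 with 12 separate arrays, with or without the block, and 1 over all probe sets, with only the groups compared, with a term for low small RNA signal, without those 4 arrays, and on leaving out LPS-treated knockout replicate 3, untreated knockout replicate 3 or LPS-treated wildtype replicate 1 or 3. The knockout count was 1 without the 4 arrays and 3 or 4 in the other settings.

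Among 7 genes listed as inhibitors of subunit transcription, 2 rose, 0 fell and 5 did not pass in each genotype, beside the same shares of all genes, with medians of 0.11 in knockout and 0.28 in wildtype cells. They were Il10, the cytokine that restrains IL-12 production, and Atf3, a repressor induced by Toll-like receptors. Il10 rose by 1.72 and 1.30 on the log2 scale in knockout and wildtype cells (adjusted p = 0.000278 and 0.0296 by limma), with untreated means of 5.67 and 5.86 that lie below the median of unannotated probe sets. Atf3 rose by 1.57 and 1.74 (adjusted p = 8.87e-05 and 0.00121). The wildtype count of inhibitors was 1 in 7 settings: with only genes above the median mean signal, over all probe sets, with only the groups compared, without the 4 arrays of low small RNA signal, and on leaving out LPS-treated knockout replicate 3, untreated knockout replicate 3 or LPS-treated wildtype replicate 3. The knockout count was 1 with only genes above the median mean signal. Of 7 measured genes of TLR4 sensing, 2 rose in knockout cells (2.98% of all genes did), the co-receptor Cd14 (1.76, adjusted p = 0.000572) and the ubiquitin ligase Traf6 (0.48, adjusted p = 0.0253), and 1 in wildtype cells (1.34% of all genes did), Cd14 (1.49, adjusted p = 0.0297). The receptor gene Tlr4 itself had differences of -0.54 (adjusted p = 0.0564) and -0.40 (adjusted p = 0.603) in knockout and wildtype cells. The counts of this list were unstable, at 1 to 3 in knockout and 0 to 4 in wildtype cells over the settings, and the wildtype count was 0 on leaving out any LPS-treated wildtype array, LPS-treated knockout replicate 3 or untreated knockout replicate 3. The knockout count was 1 on leaving out LPS-treated knockout replicate 1 or 3 or untreated knockout replicate 2 or 3. In the 4 contrasts of genotype and of its interaction with LPS, 0 of the 35 measured genes of these 5 lists passed.

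**Figure D4:**
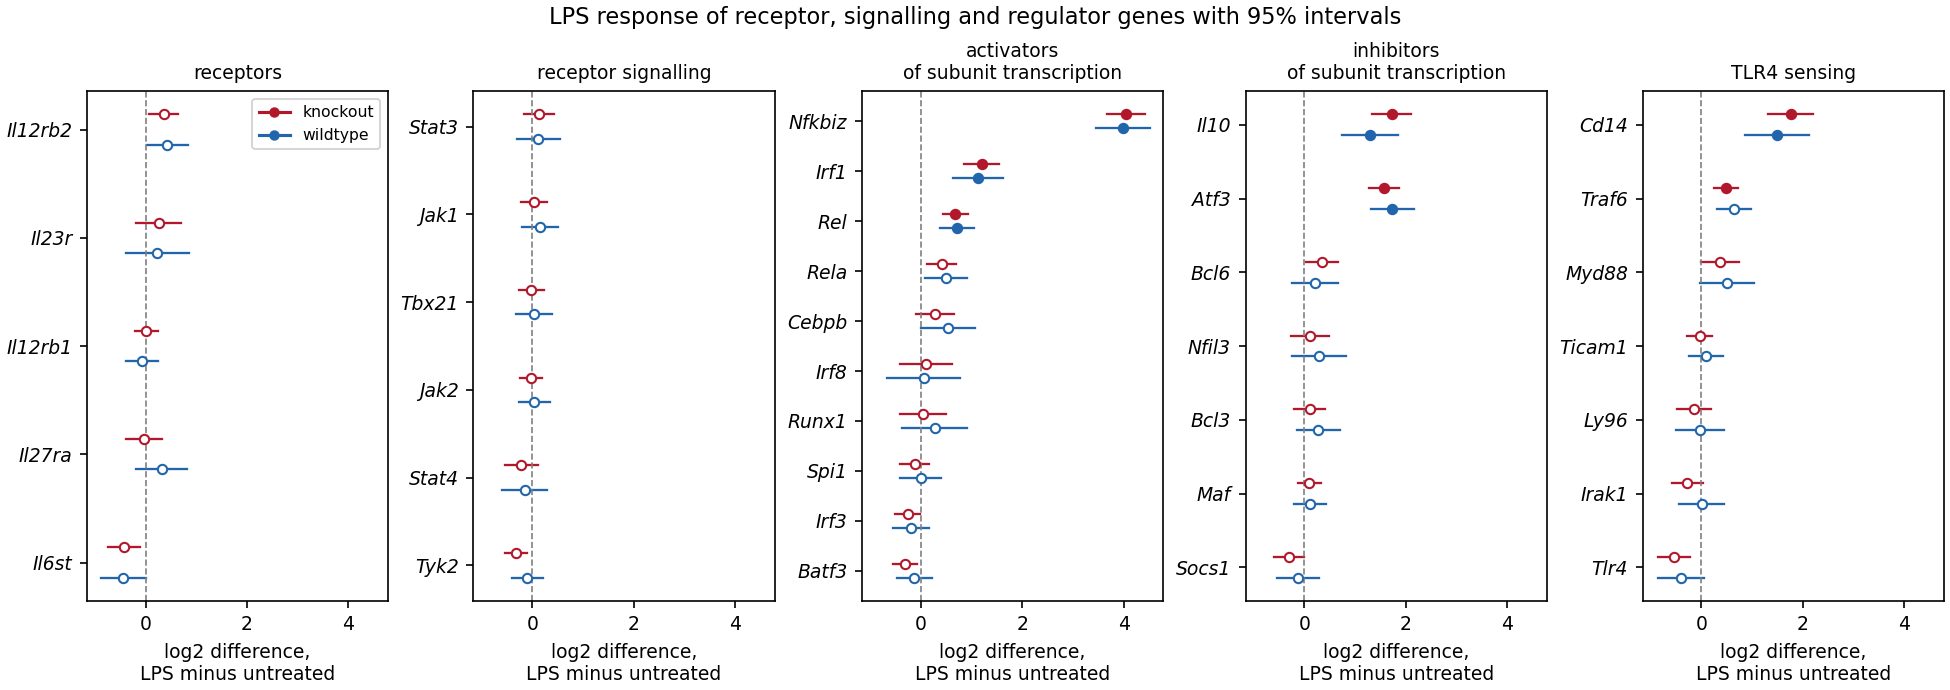
Log2 difference between LPS-treated and untreated cells (x axis) with 95% intervals for the measured genes of 5 lists (y axis), in knockout (red) and wildtype (blue) cells. Filled points passed an adjusted p of 0.05. Nfkbiz, Irf1, Rel, Il10, Atf3 and Cd14 are filled in both genotypes and Traf6 in knockout cells, and the receptor and signalling lists have no filled point.

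Neutrophil and inflammatory monocyte markers were lower in the LPS groups, in which Il23a and Il12b were high, while 0 of 6 macrophage and 0 of 4 mast cell and basophil markers passed in either genotype. The mean log2 signal of 8 neutrophil markers was 7.41 to 7.76 in LPS-treated and 8.38 to 8.84 in untreated knockout cells, and 7.21 to 8.15 in LPS-treated and 8.80 to 8.89 in untreated wildtype cells. Of these markers 5 fell in knockout and 1 in wildtype cells, where 2.93% and 0.234% of all genes fell. The mean of the macrophage markers was 8.79 to 9.93 in LPS-treated and 9.47 to 9.77 in untreated knockout cells, and 9.37 to 9.69 in LPS-treated and 9.67 to 9.68 in untreated wildtype cells, so these groups overlapped. The mean of 4 inflammatory monocyte markers was 8.54 to 9.14 against 10.10 to 10.24 in LPS-treated against untreated knockout cells, with 3 lower, and 8.83 to 9.24 against 10.27 to 10.35 in wildtype cells, with 1 lower. The mean of the 7 dendritic cell markers lay between 10.44 and 10.73 on all arrays. Of these markers 2 rose in knockout and 1 in wildtype cells, where 2.98% and 1.34% of all genes rose. The part of these markers in the response of Il23a, Il12b and Ebi3 was not tested.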

How the data were processed

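RNA of 12 cultures was hybridised to Affymetrix whole-transcript arrays, per the labels' protocols. The authors deposited normalized log2 signals, 1 for each probe set on each array. For background correction and normalization the methods are not stated in the sources used here, and the submitters' processing notes name limma alone. No column is a sample of another series. Array medians lay between 6.50 and 6.67. Of 34390 probe sets, 23521 carried 1 gene, 1814 several and 9055 none. The probe set with the highest mean stood for a gene, which left 22180 genes. The arrays carry no detection calls, and their number limits the precision.

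Samples were grouped by title. The test was limma 3.58.1 in R 4.3.3 (1 mean per group, 6 contrasts, eBayes, two-sided, Benjamini-Hochberg over all genes, threshold 0.05) with 10 samples and 6 residual degrees of freedom, the untreated wildtype arrays entering as their mean, and a lone sample assumed to vary like the others. It was checked on simulated data. Members, lists and the treatment of these arrays were chosen with earlier results of these data known. Named genes were the 5 members, the genes of 5 lists past the threshold (in lists other than the receptors, up to 5 with the smallest p), and the 3 genes most correlated with each member called. Irf8, Spi1, Il6st and Il12rb2 were named after their values were seen, and values are also given for Tlr4, Tyk2 and Jak1, which did not pass. Of 40 list genes, 35 were measured and 5 are not analysed here.

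Residuals of arrays with the same replicate number correlated at 0.381, 0.299 and 0.196 between the knockout groups. Between the LPS groups the values were 0.338, 0.358 and 0.228. Replicates 2 and 3 of both LPS groups also shared a low small RNA signal, and whether the numbers mark paired cultures was not tested. Such correlation was absent between the wildtype groups (-0.03 to 0.01) and between the untreated groups (-0.05 to -0.01). In all, 28 other settings were run, of which 1, the second Ebi3 probe set, was added after the data were seen. Promoter windows came from RefSeq for GRCm38.p6, and 3 of the 5 members matched; Il23a and Il27 are named only.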

Additional observations from a re-analysis of the deposited data

How the results depend on the processing

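Of 780 values of the 5 genes under other settings, 744 kept their direction and their side of the threshold, 13 no longer passed and 23 changed sign, with none of the sign changes past the threshold. Il23a passed in both genotypes and Il12b in knockout cells under each setting run, at 4.17 to 4.38 and 3.93 to 4.29 for Il23a in knockout and wildtype cells and 2.05 to 2.59 for Il12b. The losses were 12 for Ebi3 in knockout cells and 1 for Il12b in wildtype cells. The loss for Il12b came without the 4 arrays of low small RNA signal, which left 1 LPS array per genotype, at a difference of 2.05. Its cause was not tested. The lowest adjusted p of any genotype or interaction value of the 5 genes was 0.372 (limma). A fit with a replicate block on the groups compared changed no call of LPS in knockout cells (Ebi3 0.48, adjusted p = 0.0488). The filter on genes above the median mean signal removed Il12a and gave no count of members.

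Sign changes after LPS, knockout minus wildtype, came without the 4 arrays of low small RNA signal, for Il23a (-0.060) and Ebi3 (-0.13). Over both treatments that setting gave -0.0011 for Il23a and -0.080 for Ebi3, and in the interaction -0.12 for Il23a, -0.11 for Ebi3 and 0.029 for Il27. Quantile normalization gave -0.016 for Il12b over both treatments. In untreated cells Il12b was 0.026 with a term for Y-linked signal and 0.17 without those 3 arrays, and Ebi3 was 0.070 with arrays shifted to the same median, 0.021 as the mean of its probe sets, 0.0037 without those 3 arrays and 0.067 by its second probe set. Leaving out 1 array gave, in untreated cells, -0.080 to 0.19 for Il23a, -0.37 to 0.17 for Il12b and -0.12 to 0.035 for Ebi3, and over both treatments -0.082 to 0.19 for Il12b and -0.040 to 0.063 for Il12a. The cause of these changes was not tested.

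Counts over all genes moved more. LPS called 1311 genes in knockout and 349 in wildtype cells, against 2021 and 1917 with 12 separate arrays, 2539 and 2437 with the replicate block added to these, 562 and 76 without the 4 arrays, and 615 to 1667 and 184 to 452 on leaving out 1 array; the groups compared alone gave 196 in wildtype cells. Knockout against wildtype called 2 genes after LPS (1 to 5 elsewhere), 1 untreated (97 with 12 arrays, 223 with the block) and 3 over both treatments (6 and 9). The interaction called 0, and 982 of 22180 genes had an unadjusted p below 0.05 by limma. It called 55 with 12 arrays, 112 with the block and 35 without LPS-treated knockout replicate 2.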
